A study of Mus musculus with 16 samples.

Results

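Growing oocytes in which Hdac1 had been deleted were set against wild-type growing oocytes on 8 arrays, 4 per genotype, taken by their titles from the 16 arrays of the study. Of 35556 probe sets on the array, the 21218 that the platform annotation ties to exactly 1 gene symbol were tested. The question was which transcripts respond when Hdac1 alone is missing, and how closely the rest of the transcriptome keeps its level across the range of signal. All mice were on the C57BL/6 background and 12 days old, and each array read the amplified RNA of 80 pooled oocytes from the ovary. The Hdac1 knockout oocytes carried conditional Hdac1 alleles and a Cre recombinase under the control of Zp3, a gene that growing oocytes switch on and the other cells of the ovary do not. The Hdac2 knockout and the Hdac1/2 double knockout, with 4 arrays each, were made with the same Cre, and serve here for the estimate of spread and for comparison. The sources used here do not say whether the wild-type mice carried the Cre or the conditional alleles, so effects of the transgene and of the deletion cannot be told apart.

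Histone deacetylases 1 and 2 remove acetyl groups from histone tails. They are close relatives that sit in the same co-repressor complexes, among them Sin3, NuRD and CoREST, and in many tissues either enzyme can stand in for the other. A growing oocyte transcribes actively and stores messenger RNA and protein for meiosis and the first divisions of the embryo, before transcription ceases in the full-grown oocyte.

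Across the tested probe sets the Hdac1 knockout arrays correlated with each other at 0.9965 to 0.9976, the wild-type arrays with each other at 0.9967 to 0.9979, and arrays of the 2 genotypes at 0.9957 to 0.9965. All 12 measured oocyte markers lay above the median of the tested values (5.26 on the log2 scale) in both genotypes, and their summed linear signal was 38710 to 40040 in the knockout arrays and 38850 to 39450 in the wild-type arrays. Of 14 granulosa cell markers, 3 lay above that median in the knockout and 2 in wild type, with summed signals of 1101 to 1245 and 1133 to 1234. Of 11 theca and stroma markers 0 lay above it in either genotype. Of 12 blood, immune and endothelial markers 3 did in each, with summed signals of 645.1 to 725.6 in the knockout and 655.1 to 717.9 in wild type. No marker of these 4 lists passed the threshold between the genotypes. The arrays have nearly equal quartiles as deposited, so a change in the amount of RNA shared by all genes would not show.

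Hdac1 itself checks the labels. Its brighter probe set (10516605) read 6.40, 6.53, 6.70 and 6.83 in the 4 Hdac1 knockout arrays, against 9.26, 9.26, 9.23 and 9.35 in the 4 wild-type arrays, in log2 units of signal. The groups lay far apart. Hdac1 fell by 2.66 ± 0.08 (SE) on the log2 scale, which left 15.8% of the wild-type signal (limma adjusted p = 3.97e-12, two-sided exact permutation p = 0.0286, the smallest that 70 arrangements allow). The dimmer probe set (10447004) changed by -2.71. In pooled oocytes, a few cells that keep the transcript and a small amount left in every cell cannot be told apart.

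Hdac2, the closest relative of Hdac1, was as bright in the knockout as in wild type. Its probe set read 11.16, 11.05, 11.14 and 11.16 in Hdac1 knockout arrays, against 11.07, 11.02, 11.18 and 11.08 in wild-type arrays, and the groups overlapped. The difference of 0.04 had a 95% interval of -0.07 to 0.15 (limma adjusted p = 0.878, exact permutation p = 0.4). In the Hdac2 knockout this probe set averaged 10.99 ± 0.03 (SD, n = 4) and did not pass against wild type either (limma adjusted p = 0.33), so it does not report that deletion. The other class I deacetylases gave no call either. Hdac3 averaged 7.29 ± 0.19 in the knockout and 7.15 ± 0.15 in wild type, and Hdac8 averaged 7.92 ± 0.08 and 7.85 ± 0.11 (SD, n = 4 each).

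Few transcripts passed the threshold between the Hdac1 knockout and wild type. A count of calls does not give the number of transcripts that differ. At an adjusted p under 0.05 (limma, Benjamini-Hochberg over all tested probe sets), 15 of 21218 probe sets (0.0707%) differed from wild type, of 14 genes. Outside Hdac1 these were 13 probe sets of 13 genes. In all, 4 probe sets were higher (0.0189%) and 11 lower (0.0518%), the 2 of Hdac1 included. With each array centred on its median the split was 7 higher and 11 lower. Without any adjustment 1846 probe sets (8.7%) had p under 0.05. In 1109 probe sets (5.23%) all 4 arrays of one genotype lay beyond all 4 of the other, and all 15 calls were among them.

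Mt1 (probe set 10574027) rose further than any other tested probe set. It encodes metallothionein 1, a small cysteine-rich protein that binds zinc and copper and whose gene responds to metals and stress. The Hdac1 knockout arrays read 10.85, 11.30, 11.30 and 11.12, against 6.52, 6.54, 6.38 and 6.61 in wild-type arrays. Every knockout array stood above 10 and every wild-type array below 7. Mt1 signal rose by 4.63 ± 0.09 (SE), 24.8-fold (limma adjusted p = 5.1e-15). The sources used here do not give the sequence of the Cre transgene, so RNA of the Mt1 gene and of any Mt1 sequence that the transgene may contain, such as a polyadenylation signal, cannot be told apart in this probe set.

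The neighbour and closest relative of Mt1 did not share this. Mt2, the other metallothionein made in most tissues and the gene next to Mt1 in the order of tested genes, read 4.59, 4.95, 4.82 and 4.69 in Hdac1 knockout arrays, against 4.90, 4.94, 4.85 and 5.03 in wild-type arrays. The groups overlapped, with a difference of -0.17 (95% interval -0.37 to 0.03, limma adjusted p = 0.655). Mt3 and Mt4, the tissue-restricted metallothioneins, differed by 0.04 and 0.06. Mtf1, the zinc finger factor that drives metallothionein genes when zinc is plentiful, averaged 10.45 ± 0.04 in the knockout and 10.43 ± 0.06 in wild type. Slc30a1, a zinc exporter and another target of that factor, averaged 9.28 ± 0.07 and 9.22 ± 0.04 (SD, n = 4 each). Of the 12 measured genes of the metallothionein and metal response list, 1 rose, 0 fell and 11 did not pass, with a median change of 0.02 against 0.00 over all 18820 genes. With 0.0707% of all probe sets called, a list this short would mostly hold no further call whatever its genes.

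The RefSeq promoter windows of Mt1 and Mt2 (build GRCm38.p6, 250 bases before to 50 after the start of the gene, forward strand) are shown because both genes carry the sites of the metal-responsive factor while only Mt1 passed the threshold. Capitals mark matches on either strand to the core of that site, searched as TGCACNC and TGCGCNC. No 2 matches overlap in these windows. The Mt1 window is chr8:94178839-94179138 and the Mt2 window chr8:94172368-94172667.
Mt1: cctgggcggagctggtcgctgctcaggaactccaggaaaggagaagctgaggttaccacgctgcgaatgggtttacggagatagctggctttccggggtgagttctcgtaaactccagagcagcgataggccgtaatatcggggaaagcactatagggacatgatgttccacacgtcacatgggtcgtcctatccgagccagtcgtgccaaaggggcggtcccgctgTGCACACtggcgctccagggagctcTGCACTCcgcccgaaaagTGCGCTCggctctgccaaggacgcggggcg
Mt2: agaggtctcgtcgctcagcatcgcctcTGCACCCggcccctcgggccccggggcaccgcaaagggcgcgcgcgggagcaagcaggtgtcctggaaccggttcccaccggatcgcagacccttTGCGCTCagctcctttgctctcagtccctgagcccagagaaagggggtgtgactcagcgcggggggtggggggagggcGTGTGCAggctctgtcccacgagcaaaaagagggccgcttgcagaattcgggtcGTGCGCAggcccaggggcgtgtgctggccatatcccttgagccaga
The Mt1 window held 3 matches, at -23, 2 and 20 from the start, and the Mt2 window held 4. Among 32851 RefSeq promoter windows of the same length, 25.7% held at least 1 match, 1.97% at least 3 and 0.518% at least 4. A match describes the letters of the window and is no evidence that a factor binds there.

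Rnase6 (probe set 10414548) fell further than any other gene. It encodes a secreted ribonuclease of the RNase A superfamily, known for action against bacteria. The Hdac1 knockout arrays read 5.42, 4.93, 4.70 and 4.79, against 9.26, 9.07, 9.19 and 9.11 in wild-type arrays. No knockout array came within 3 log2 units of a wild-type array. Rnase6 fell by 4.19 ± 0.50 (SE), which left 5.47% of the wild-type signal (limma adjusted p = 0.00115). Its large standard error comes from the double knockout, whose 4 arrays read 7.97, 5.61, 8.33 and 5.39 and which shares the estimate of spread. The SD was 0.32 over the Hdac1 knockout arrays and 0.09 over the wild-type arrays.

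The other RNase A genes of the array were dim, none averaging above 4.64 in wild type. The 13 measured besides Rnase6 had changes between -0.14 (Ang4, an angiogenin-family ribonuclease) and 0.19 (Rnase1, the pancreatic-type ribonuclease), and 0 of them passed. The list, Rnase6 included, had a median wild-type mean of 3.71, near the floor, where a fall can hardly show. With 0.0707% of all probe sets called, 0 calls among so few genes is also the usual count. Rnase1 and Rnase2b are among the nearest tested genes to Rnase6, and they averaged 4.56 ± 0.17 and 3.21 ± 0.04 in the knockout, against 4.37 ± 0.14 and 3.10 ± 0.03 in wild type (SD, n = 4 each).

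The other called genes are given by what their proteins do. Lists of related genes stand beside some of them, and several were drawn up around the called gene. At the share called over all probe sets, 0.0707%, lists this short would mostly hold no further call whatever their genes. Prep, a cytosolic peptidase that cuts after proline in short peptides, read 10.49, 10.09, 10.19 and 10.21 in Hdac1 knockout arrays, against 10.99, 11.10, 11.09 and 11.11 in wild-type arrays. Its groups did not overlap, and it fell by 0.83 ± 0.08 (SE; limma adjusted p = 9.95e-05). Prep had the highest wild-type level of the called probe sets, and 56.3% of that signal was left.

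Slc6a20a, a sodium-coupled transporter of proline and related imino acids, read 8.67, 8.26, 8.07 and 8.19 in Hdac1 knockout arrays, against 9.12, 9.06, 9.18 and 9.11 in wild-type arrays. Replicate 1 of the knockout stood highest in its group and still below every wild-type array. Slc6a20a fell by 0.82 ± 0.11 (SE; limma adjusted p = 0.0023). Its close copy Slc6a20b, the next gene in order, averaged 8.15 ± 0.28 in the knockout and 8.30 ± 0.08 in wild type (SD, n = 4 each), with a limma adjusted p of 0.749. Of 11 measured transporters of the family, 1 fell and 10 did not pass.

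Enpp3, an enzyme of the cell surface that cleaves extracellular nucleotides, read 4.42, 4.78, 4.76 and 4.82 in Hdac1 knockout arrays, against 5.64, 5.42, 5.85 and 5.58 in wild-type arrays. The groups did not overlap, although both are in the dimmer part of the scale. Enpp3 fell by 0.93 ± 0.13 (SE; limma adjusted p = 0.00425). Among the 4 other measured members of its family 0 passed, and the brightest, Enpp5, averaged 10.25 ± 0.07 in the knockout and 10.28 ± 0.06 in wild type (SD, n = 4 each).

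Ostm1, the partner subunit of a lysosomal chloride transporter, was one of the few that went up. It read 7.15, 7.29, 7.50 and 7.24 in Hdac1 knockout arrays, against 6.55, 6.59, 6.37 and 6.59 in wild-type arrays. The lowest knockout array stood above the highest wild-type array. Ostm1 rose by 0.77 ± 0.09 (SE), 1.71-fold (limma adjusted p = 0.000992). Lamp1, an abundant glycoprotein of the lysosome membrane, averaged 10.84 ± 0.05 in the knockout and 10.82 ± 0.04 in wild type (SD, n = 4 each), and of the 6 measured lysosome genes listed with Ostm1 only Ostm1 passed.

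Wasf1, which encodes the actin regulator WAVE1, showed the tightest arrays of the called genes on chromosome 10. It read 7.79, 7.72, 7.73 and 7.77 in Hdac1 knockout arrays, against 8.15, 8.04, 8.15 and 8.11 in wild-type arrays, with no overlap. Wasf1 fell by 0.36 ± 0.05 (SE), less than 1.4-fold, with SDs of 0.03 and 0.05 over the arrays of the knockout and of wild type (limma adjusted p = 0.00167). Of the 10 measured genes of its complex and family 1 fell and 9 did not pass, Wasf2 among them with 10.11 ± 0.02 in the knockout and 9.98 ± 0.05 in wild type (SD, n = 4 each).

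Poglut2, an enzyme of the endoplasmic reticulum that adds glucose to EGF-like repeats, read 6.52, 6.50, 6.48 and 6.36 in Hdac1 knockout arrays, against 7.03, 6.88, 7.03 and 7.01 in wild-type arrays. The groups did not overlap, and Poglut2 fell by 0.52 ± 0.07 (SE; limma adjusted p = 0.00425). Poglut1, Pofut1 and Pofut2, which also sugar such repeats, had changes of -0.26, 0.06 and 0.06 and did not pass.

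Signalling genes gave 2 small rises. Adgrg6, an adhesion receptor coupled to G proteins, read 3.97, 3.67, 3.72 and 3.91 in Hdac1 knockout arrays, against 3.38, 3.37, 3.34 and 3.17 in wild-type arrays. These are dim values near the floor of the scale, and they did not overlap. Adgrg6 rose by 0.50 ± 0.08 (SE; limma adjusted p = 0.0169). Dvl1, which relays Wnt signals inside the cell, read 6.04, 5.88, 6.02 and 5.71 in Hdac1 knockout arrays, against 5.56, 5.42, 5.36 and 5.51 in wild-type arrays. It rose by 0.45 ± 0.08 and was the last gene inside the threshold (limma adjusted p = 0.0487). Of 16 measured Wnt transducers and targets Dvl1 alone passed, with a list median of 0.05. Axin2, a feedback target of the pathway, averaged 9.82 ± 0.11 in the knockout and 9.62 ± 0.08 in wild type (SD, n = 4 each; limma adjusted p = 0.517).

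The last 3 called genes act in translation, on transfer RNA and on ubiquitin chains, and each needs care. Rps13, a protein of the small ribosomal subunit, was called in 1 of 3 probe sets, 10567163, which read 10.36, 10.30, 10.30 and 10.32 in Hdac1 knockout arrays, against 10.66, 10.64, 10.62 and 10.59 in wild-type arrays. This was the tightest pair of groups among all called genes, without overlap, and a fall of only 0.31 ± 0.05 (SE) passed (limma adjusted p = 0.0172). Its brighter probe sets did not pass, with differences of -0.26 and -0.18 (limma adjusted p = 0.0975 and 0.295). Ribosomal protein genes have many near copies in the genome that share probe sequence.

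Dtwd2, an enzyme that modifies transfer RNA, read 6.45, 6.30, 6.44 and 6.29 in Hdac1 knockout arrays, against 6.65, 6.82, 6.75 and 6.90 in wild-type arrays. The groups were close but did not overlap, and Dtwd2 fell by 0.41 ± 0.07 (SE; limma adjusted p = 0.0223). Ube2v2, a ubiquitin-conjugating enzyme variant, was called in the dimmest of its 3 probe sets, 10437942, which read 8.20, 8.06, 7.83 and 8.34 in Hdac1 knockout arrays, against 8.88, 8.78, 8.93 and 8.74 in wild-type arrays. That probe set fell by 0.72 ± 0.13 (limma adjusted p = 0.0469), while the brighter ones, at 10.51 and 10.49 in the knockout and 10.47 and 10.44 in wild type, differed by 0.04 and 0.05.

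**Figure D1:**
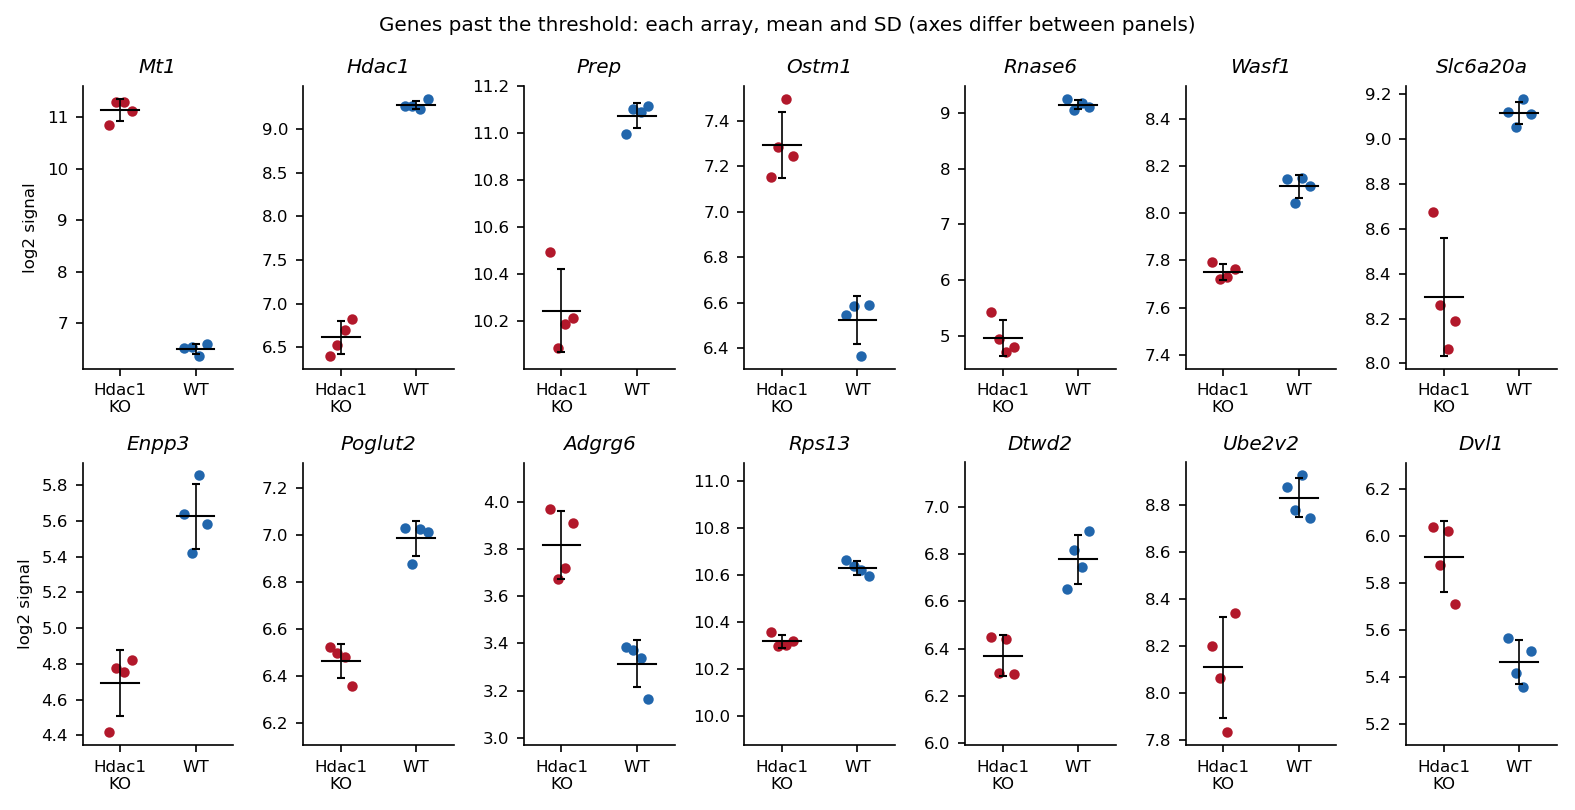
Log2 signal of the 14 called genes, 1 panel per gene with its own axis; points are single arrays (Hdac1 KO left, WT right), horizontal bars the means and vertical bars the SD over 4 arrays. In every panel the 2 groups are separate, by 4.63 log2 units of mean for Mt1 and by 0.31 for Rps13.

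Calls differed in whether they held when 1 array was left out. Mt1, Prep, Ostm1, Rnase6, Wasf1, Slc6a20a, Enpp3, Poglut2 and Hdac1 passed in all 8 fits that left out 1 array of these groups. Adgrg6 was lost in 2 of the 8, without knockout replicate 1 and without wild-type replicate 4 (limma adjusted p up to 0.0843). Rps13 and Dtwd2 were each lost in 5 of 8, and Ube2v2 and Dvl1 in 7 of 8. Removing arrays of either genotype lost them, and their limma adjusted p were the highest of the calls, so no single array is singled out. Without replicate 4 of the Hdac1 knockout the count of called probe sets was 30, with 14 of the 15 among them. Without wild-type replicate 4 it was 10. Among the other fits, the 8 arrays alone lost Adgrg6, Dtwd2, Dvl1 and Rps13, the trended robust model Dtwd2 and Dvl1, quantile normalization Dvl1 and Ube2v2, centring Ube2v2, and the filter on dim probe sets Adgrg6, which it does not test.

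Just outside the threshold came a short tail of genes. The 5 next genes on the higher side were Osbpl7, a lipid-binding protein of the oxysterol-binding family, Pkig, an inhibitor of protein kinase A, Rgs3, a regulator of G-protein signalling, Sf3b5, a splicing factor, and Parp11, an ADP-ribosyltransferase. Their changes were 0.70, 0.28, 0.43, 0.41 and 0.53, at limma adjusted p between 0.0585 and 0.0636. On the lower side they were Psmb5, a catalytic subunit of the proteasome (-0.35), Pdss2, of coenzyme Q synthesis (-0.40), Trim30d (-1.71), the amino acid transporter Slc6a15 (-0.47) and the olfactory receptor gene Olfr92 (-0.31), at limma adjusted p between 0.0618 and 0.0975. Raising the limit of the adjusted p to 0.1 took in 34 probe sets in place of 15. These genes did not pass. With dim probe sets left out Osbpl7, Pkig, Rgs3, Sf3b5, Psmb5 and Pdss2 passed (limma adjusted p between 0.0288 and 0.0382). Parp11 did too (limma adjusted p = 0.0382), but that filter keeps probe sets whose highest genotype mean exceeds 5.26. Only the Hdac1 knockout mean of Parp11, 5.56, did, against 5.03 in wild type, so its call there is no support. Osbpl7, Psmb5, Rgs3 and Sf3b5 also passed with arrays centred on their medians and with the trended robust variance model.

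Nearly all other probe sets held close to their wild-type level. The median change over all tested probe sets was 0.00 log2 units and the median of its absolute size 0.07. The change stayed within 1.1-fold in 81.4% of probe sets, within 1.2-fold in 96.5% and within 1.4-fold in 99.4%. A difference beyond 1.4-fold, the limit the series' design text names, was seen in 119 probe sets (0.561%), 47 higher and 72 lower, and 11 of these were called. A small estimate is not the same as a bounded one, so the 95% interval of each change was set against the same limit. It lay wholly within 1.4-fold for 19961 probe sets, or 94.1%. For 1244 probe sets (5.86%) the interval reached past 1.4-fold without a call, so a difference of that size is neither shown nor bounded there.

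**Figure D2:**
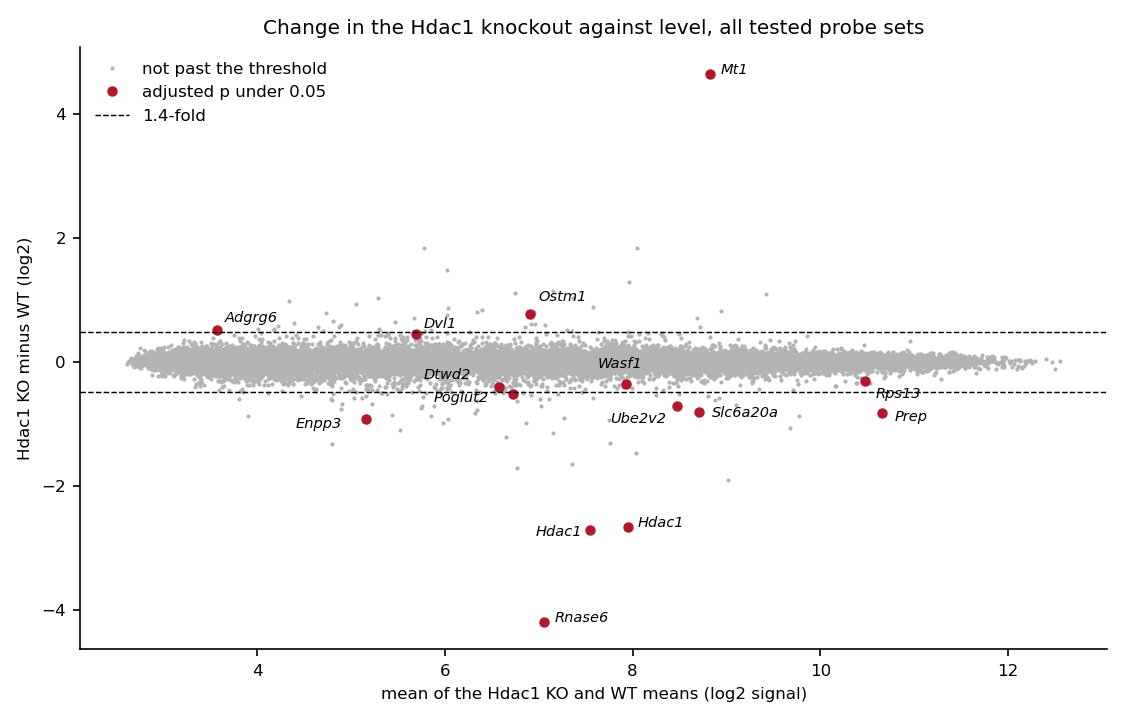
Difference between Hdac1 KO and WT means (vertical, log2) against the mean of both (horizontal, log2 signal) for 21218 probe sets; red points have an adjusted p under 0.05 and dashed lines mark 1.4-fold. The cloud is narrow at both ends of the scale and widest between about 5 and 8, with Mt1 at 4.63 and Rnase6 at -4.19 far outside it.

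The spread of the change differed with level. The probe sets were divided into 10 equal groups (deciles) by their mean over the Hdac1 knockout and wild-type arrays. Leaving out called probe sets, the SD of the change was 0.08 log2 units in the dimmest decile, 0.18 in the sixth and 0.07 in the brightest. The 95th percentile of the absolute change was 1.12-fold in the dimmest decile, 1.27-fold in the sixth and 1.10-fold in the brightest. The dimmest probe sets lie between 2.61 and 3.36, near the floor, where a fall can hardly show. A narrow spread there does not bound the transcript. The ordering uses the knockout arrays too, so a probe set that rises can leave that decile. Adgrg6, with a wild-type mean of 3.31, was called higher and counts in the second decile. The brightest probe sets lie between 9.997 and 12.56. There 99.5% of probe sets had an interval within 1.4-fold, compared with 84.1% in the sixth decile and 98.5% in the dimmest.

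The spread between arrays had the same shape. The median standard error was 0.08 in the dimmest decile, 0.10 in the sixth and 0.06 in the brightest, and the median SD within the knockout was 0.09, 0.14 and 0.07, against 0.09, 0.13 and 0.06 within wild type. With the last call at a moderated t of 5.67, a probe set of median standard error needed a change of 1.35-fold in the dimmest decile, 1.51-fold in the sixth and 1.25-fold in the brightest to be called. The dimmest decile held 0 calls, the sixth Dvl1, the seventh Poglut2, Ostm1, Rnase6 and Dtwd2 beside Hdac1, and the brightest Prep and Rps13. Ordering the probe sets by the Hdac2 and double knockouts instead, which the contrast did not use, placed Mt1 in the brightest decile, whose SD was then 0.13 with Mt1 and 0.08 without called probe sets.

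**Figure D3:**
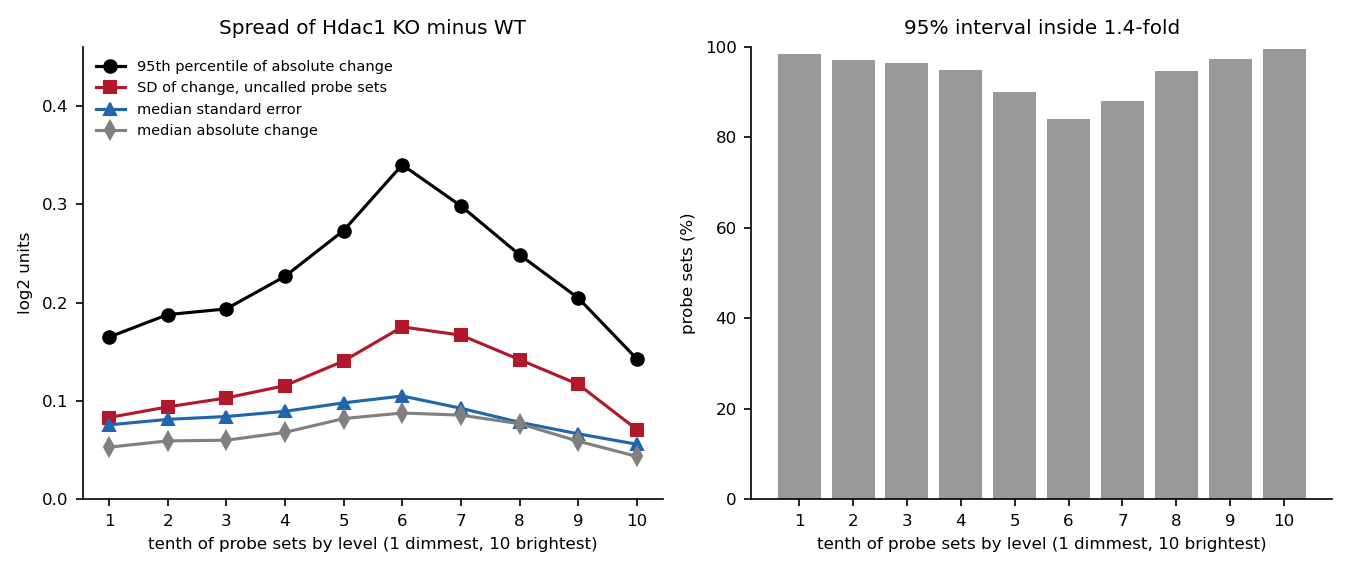
Left, 4 measures of the Hdac1 KO minus WT change (log2 units) in 10 equal groups of probe sets ordered by level; right, the percentage of each group whose 95% interval lies within 1.4-fold. All 4 measures peak in the sixth decile, where the percentage is lowest at 84.1%.

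Bright transcripts show the precision that was reached. The growth factor gene Gdf9, made by the oocyte, averaged 12.46 ± 0.04 in the knockout and 12.47 ± 0.03 in wild type (SD, n = 4 each), and its change had a 95% interval of -0.09 to 0.09. The egg-coat gene Zp1 averaged 12.12 ± 0.02 and 12.10 ± 0.06, and the maternal-effect gene Nlrp5 12.20 ± 0.10 and 12.20 ± 0.02. Dnmt1, the maintenance DNA methyltransferase, averaged 12.29 ± 0.04 in the knockout and 12.28 ± 0.01 in wild type. Of the 10 brightest genes, Sod1, an antioxidant enzyme, averaged 12.56 ± 0.08 in the knockout and 12.55 ± 0.06 in wild type. Each of these changes had an interval inside 1.4-fold, and none of these genes passed.

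Gene lists of oocyte biology were read against the share called over all probe sets, 0.0707%, at which lists of this size would mostly hold 0 calls whatever their genes, so the intervals carry the information. Genes given as the lowest or highest of a list, and others named here for an interval past 1.4-fold, were picked by their values. Of 468 genes measured in 29 lists, 9 were called, in lists that include families drawn up around called genes, and 435 (92.95%) had an interval within 1.4-fold, against 94.1% of all probe sets. In 20 lists no gene passed, with list medians between -0.02 and 0.04. All 32 oocyte growth genes stayed below the threshold (median 0.00, from -0.25 for Sohlh2 to 0.19 for Ybx2), and 30 had an interval within 1.4-fold. So did all 20 measured genes of maturation and dormant maternal mRNA, all with such an interval, for example Plat, which encodes tissue plasminogen activator and averaged 11.63 ± 0.08 in the knockout and 11.57 ± 0.07 in wild type (SD, n = 4 each). Of 19 meiotic prophase genes 0 passed, but 6 had intervals past 1.4-fold, among them Hormad1, which builds the chromosome axis, and Stra8, which starts meiosis.

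Partners and opponents of Hdac1 are given mainly by their intervals, since 0 calls in lists this short is near the share over all probe sets. Of 35 measured subunits of the HDAC1/2 complexes 0 rose and 0 fell, with a median change of 0.03, and 34 had an interval within 1.4-fold. The exception, Mbd3, of the NuRD complex, averaged 7.42 ± 0.08 in the knockout and 7.08 ± 0.09 in wild type (SD, n = 4 each), without overlap, a difference of 0.34 that did not pass (limma adjusted p = 0.141). It lies on chromosome 10, 310 tested genes from Hdac2. The brightest subunit, Rbbp7, a histone-binding protein, averaged 11.75 ± 0.05 and 11.79 ± 0.02. All 12 histone acetyltransferases had an interval within 1.4-fold, from Taf1 (-0.22) to Kat2a (0.18), as did all 7 class II and IV deacetylases, from Hdac5 (-0.12) to Hdac11 (0.22).

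Lists of the cell cycle, cell death and stress held 0 calls too, near the share over all probe sets. The 8 cyclin-dependent kinase inhibitors, 25 p53 targets and 13 pro-apoptotic genes had medians of 0.01, -0.02 and 0.04. Cdkn1b, which encodes the inhibitor p27, averaged 10.11 ± 0.03 in the knockout and 10.09 ± 0.11 in wild type, and Mdm2, the p53-induced inhibitor of p53, 9.59 ± 0.03 and 9.54 ± 0.04 (SD, n = 4 each). Of 15 stress response genes 0 passed, the endoplasmic reticulum chaperone Hspa5 averaging 10.83 ± 0.05 in the knockout and 10.81 ± 0.05 in wild type. The 20 imprinted genes, 19 REST-repressed neuronal genes, 33 oxidative phosphorylation genes, 30 proteasome subunits and 45 cytosolic ribosomal proteins gave 0 calls. Their medians lay between -0.01 and 0.02. Each gene was read by its brightest probe set, and the list of ribosomal proteins does not include Rps13. Of 16 measured genes of the 2-cell embryo 0 passed, and the widest difference was that of Tcstv1, at 9.42, 9.61, 9.61 and 7.94 in Hdac1 knockout arrays, against 10.36, 10.12, 10.15 and 10.19 in wild-type arrays. Its groups did not overlap, but knockout replicate 4 stood apart, and the difference of -1.06 did not pass (limma adjusted p = 0.218; 0.0156 without that array).

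Most large differences without a call came from probe sets whose arrays scattered widely, named here after their values were seen. Apart from calls, 19 probe sets differed by more than 2-fold, 9 higher and 10 lower. In 18 of them the SD of a group exceeded 0.5, which holds for 0.617% of all tested probe sets. A change beyond 2-fold goes uncalled only where the standard error is large, so that share is largely set by the selection. Manba, a lysosomal mannosidase, read 7.49, 7.69, 3.84 and 7.79 in Hdac1 knockout arrays, against 3.84, 7.90, 3.88 and 3.83 in wild-type arrays. Each array thus lay at one of 2 levels, and both genotypes held both. Pramel27, of the PRAME family of germline genes, read 9.77, 9.36, 5.84 and 9.46 in Hdac1 knockout arrays, against 9.66, 4.93, 5.03 and 9.65 in wild-type arrays. Arid5b, a DNA-binding protein, read 9.83, 10.03, 9.84 and 10.17 in Hdac1 knockout arrays, against 9.96, 9.96, 5.67 and 9.93 in wild-type arrays, so that its difference of 1.09 rests on wild-type replicate 3.

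Other genes of this set had arrays that did not overlap, as 8 of the 19 did, against 5.23% of all probe sets. The set was chosen for large differences, which by itself raises the share without overlap. Slc7a8, an amino acid transporter, read 4.30, 4.03, 4.01 and 4.20 in Hdac1 knockout arrays, against 5.58, 5.63, 5.44 and 5.21 in wild-type arrays. The groups were well apart, with a difference of -1.33 and SDs of 0.14 in the knockout and 0.19 in wild type (limma adjusted p = 0.12). Slc7a8 passed in the fit of these 8 arrays alone (limma adjusted p = 0.0003), the SDs of the Hdac2 and double knockouts, which share the estimate of spread otherwise, being 0.57 and 0.68. Trim30d, of the tripartite motif family, read 5.44, 7.11, 6.00 and 5.08 in Hdac1 knockout arrays, against 7.62, 7.94, 7.55 and 7.35 in wild-type arrays. Raet1e, a ligand of the NKG2D receptor of natural killer cells, read 7.40, 8.35, 7.90 and 7.21 in Hdac1 knockout arrays, against 6.53, 6.18, 6.99 and 6.62 in wild-type arrays, a difference of 1.14 (limma adjusted p = 0.0975). Over all probe sets, 29 had arrays of 1 genotype spread over more than 2 log2 units. Of these, 19 did within the knockout, 19 within wild type and 9 within both. Of the 29, 0 were called, and with a spread that wide only a very large change could be. In all, 108 probe sets beyond 1.4-fold were not called, and in 33 of those the arrays did not overlap. That share too is raised by the choice of large differences.

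**Figure D4:**
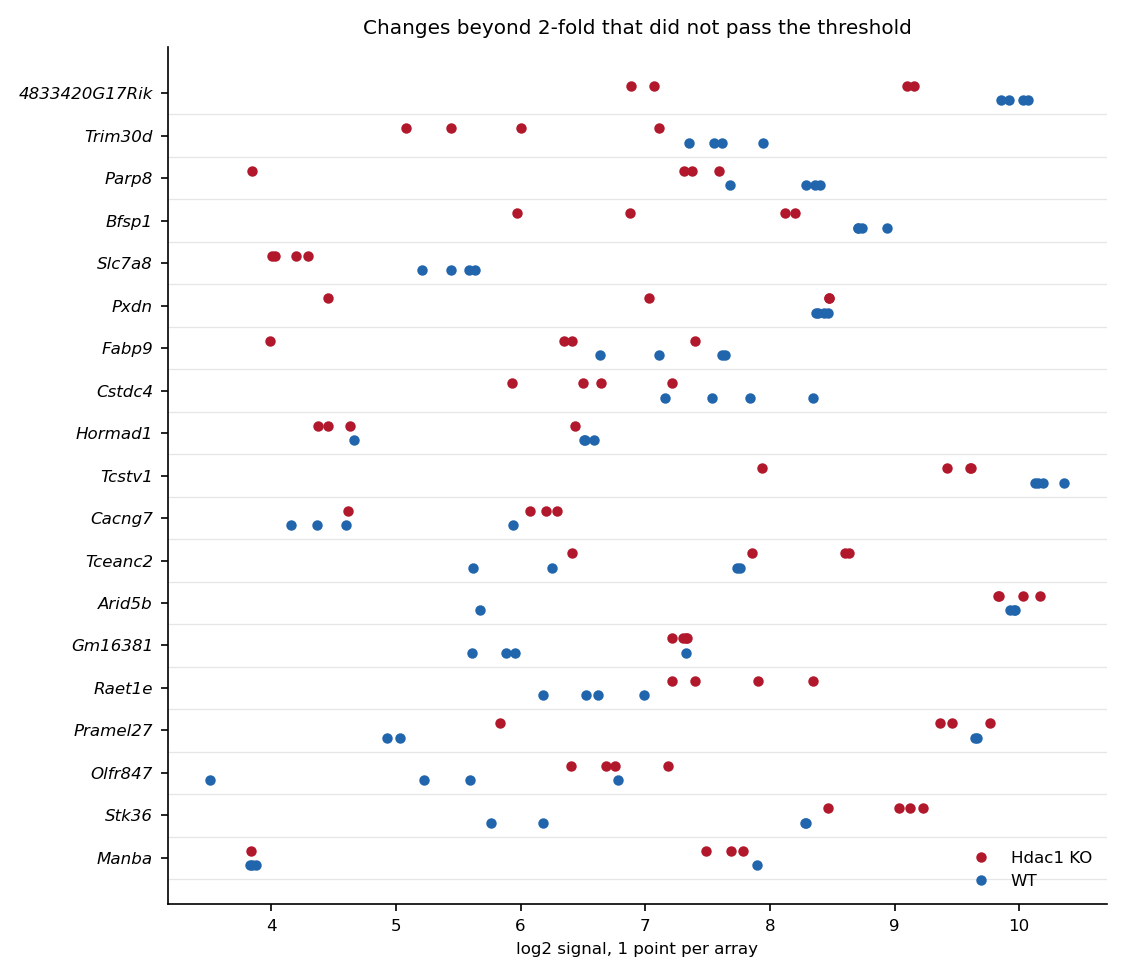
Log2 signal in each array (horizontal) of the 19 probe sets that differed by more than 2-fold without passing, 1 row per gene with Hdac1 KO above WT. In Manba and Pramel27 both genotypes split between 2 levels, and in Arid5b 1 WT array at 5.67 stands apart from the others near 10.

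The called genes were unevenly placed on the chromosomes. Of the 13 calls outside Hdac1, 5 lay on chromosome 10 (Prep, Ostm1, Wasf1, Enpp3 and Adgrg6), which holds 984 of the tested probe sets, or 4.64%, and also carries Hdac2. With the limit of the adjusted p at 0.1, 9 probe sets of that chromosome passed, Sf3b5, Pdss2, Raet1e and Slc6a15 being the others, against at most 3 on any other chromosome, Hdac1 left out. In the order of tested genes on chromosome 10, with 155 before Hdac2 and 718 after it, the 5 called genes lay 108 and 46 places before Hdac2 (Adgrg6 and Enpp3) and 24, 38 and 52 places after it (Wasf1, Ostm1 and Prep). Of the 100 genes nearest to Hdac2, 50 on each side, 3 were called and 20% had arrays that did not overlap, against 5.23% of all probe sets. The nearest 20 held 0 calls and 5% without overlap, and the nearest 200 held 4 calls and 14.5%. The changes of the 3 called genes went both ways, 2 lower and 1 higher, and Hdac2 itself had a difference of 0.04.

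Around Hdac1, on chromosome 4, the 100 nearest genes held 0 calls, 0 changes beyond 1.4-fold and 5% with arrays that did not overlap. Dvl1, the other call on that chromosome, lay 365 places away. Around Rnase6, on chromosome 14, a window chosen after the values were seen held 0 further calls, but 16% of the 100 nearest genes had arrays that did not overlap and 4 lay beyond 1.4-fold. Those 4 were all lower in the Hdac1 knockout, with differences of -0.91 for Tmem260, -0.71 for Ap5m1, -0.76 for Olfr221 and -0.52 for Prmt5 (limma adjusted p = 0.226, 0.101, 0.382 and 0.296). In the fit of the 8 Hdac1 knockout and wild-type arrays alone, Tmem260, Ap5m1 and Olfr221 passed (limma adjusted p = 0.0168, 0.0145 and 0.0114), and Prmt5 did not (0.327). Slc7a8 lay 57 places after Rnase6 and Psmb5 52. In no case was one of the 6 nearest tested neighbours of a called gene, 3 on each side, itself called. At the share called over all probe sets, 0.0707%, so few genes would mostly hold 0 calls wherever they lie. The sources used here do not give the genetic make-up of these regions in knockout and wild-type mice, so linkage to an allele and a response to Hdac1 cannot be told apart.

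**Figure D5:**
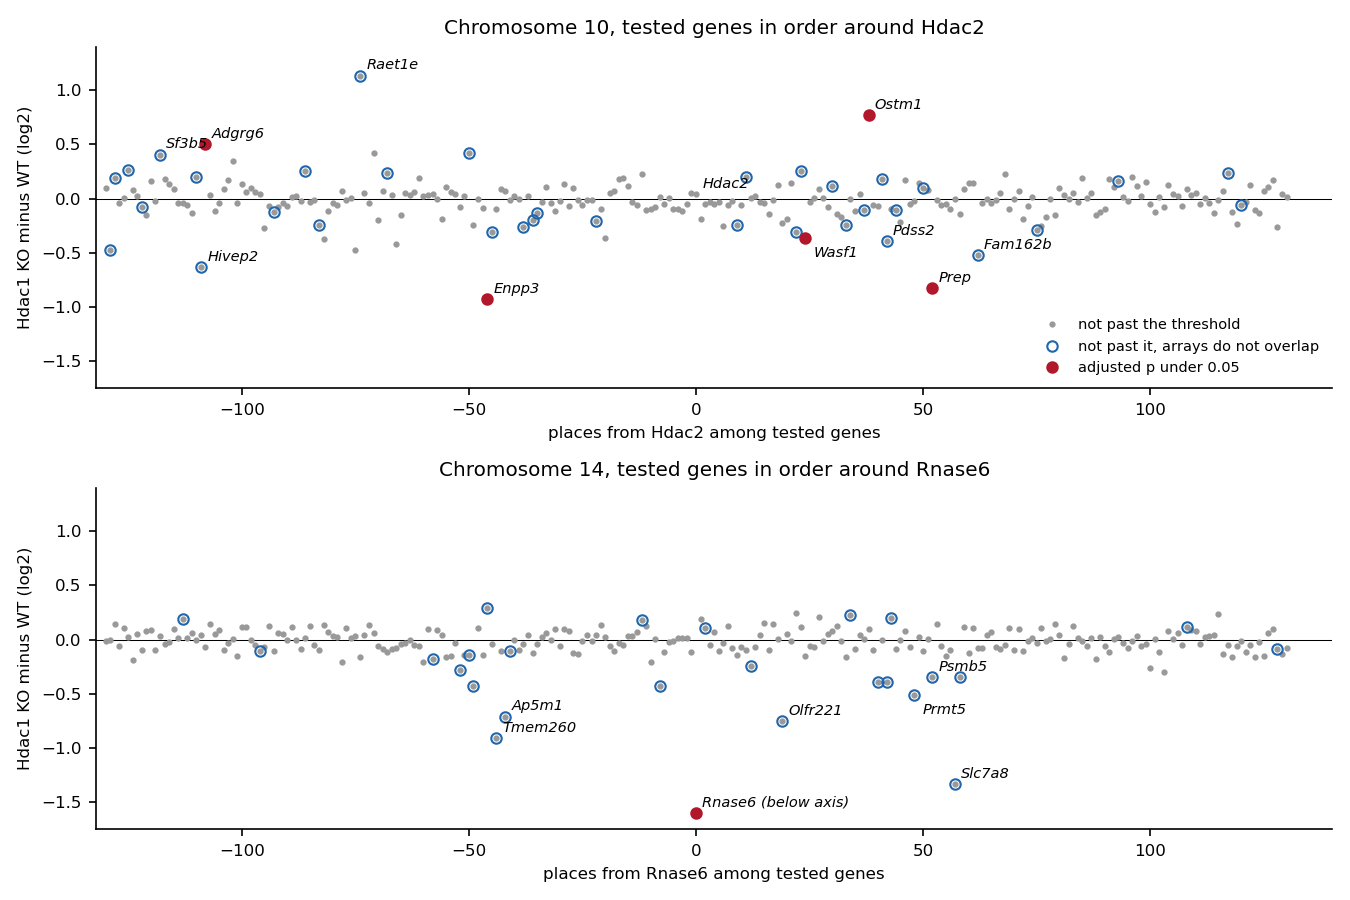
Difference between Hdac1 KO and WT (log2) for tested genes in chromosomal order, by places from Hdac2 (chromosome 10, top) and from Rnase6 (chromosome 14, bottom); red points passed the threshold and open circles mark genes whose arrays did not overlap between genotypes. On chromosome 10 the 5 called genes lie from 108 places before to 52 after Hdac2, and Rnase6 (-4.19) is drawn at the lower edge of its panel.

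The other knockouts give the same transcripts under loss of Hdac2 and of both enzymes. All 3 knockouts were set against the same 4 wild-type arrays, so their changes are not independent, and the genes were chosen through the Hdac1 knockout arrays. Against wild type, 1187 probe sets (5.59%) were called in Hdac2 knockout oocytes and 8122 (38.3%) in double knockout oocytes. Directly against the Hdac1 knockout, 1226 probe sets (5.78%) differed in Hdac2 knockout oocytes and 8220 (38.7%) in double knockout oocytes. The first count was 678 without Hdac2 knockout replicate 4, 752 without its replicate 1, and 785 and 794 without Hdac1 knockout replicates 3 and 1.

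Mt1 stood at one level in all 3 knockouts. It averaged 11.14 ± 0.21 in Hdac1 knockout oocytes, 11.06 ± 0.10 in Hdac2 knockout oocytes and 11.07 ± 0.07 in double knockout oocytes, against 6.51 ± 0.10 in wild-type oocytes (SD, n = 4 each). The Hdac1 knockout differed from the Hdac2 knockout by 0.09 and from the double knockout by 0.07 (limma adjusted p = 0.678 and 0.57). Per the labels the Zp3-Cre transgene was used for all 3 knockouts, so a level set by the transgene and one set by loss of either deacetylase cannot be told apart. Mt2 averaged 4.76 ± 0.16 in Hdac1 knockout oocytes, 4.79 ± 0.18 in Hdac2 knockout oocytes and 5.45 ± 0.13 in double knockout oocytes, against 4.93 ± 0.08 in wild-type oocytes.

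Besides Hdac1, 6 genes separated the Hdac1 knockout from both other knockouts at a limma adjusted p under 0.05, namely Prep, Ostm1, Rnase6, Wasf1, Slc6a20a and Enpp3. Of these, Prep, Ostm1, Wasf1 and Enpp3 lie within 52 places of Hdac2 in the order of tested genes. For them linkage to an allele and a response to Hdac1 cannot be told apart. Prep averaged 10.25 ± 0.17 in Hdac1 knockout oocytes, 10.95 ± 0.07 in Hdac2 knockout oocytes and 10.50 ± 0.12 in double knockout oocytes, against 11.07 ± 0.05 in wild-type oocytes (SD, n = 4 each). It was thus low in both genotypes with Hdac1 deleted. Rnase6 averaged 4.96 ± 0.32 in Hdac1 knockout oocytes, 9.30 ± 0.47 in Hdac2 knockout oocytes and 6.83 ± 1.54 in double knockout oocytes, against 9.15 ± 0.09 in wild-type oocytes, and the double knockout arrays fell into a lower and a higher pair.

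Ostm1 and Slc6a20a departed from wild type past the threshold in the Hdac1 knockout and not in the double knockout. Hdac1 was deleted in both knockouts, and its signal was higher in the double knockout. Whether that higher signal bears on Ostm1 or Slc6a20a was not tested. Hdac1 averaged 6.61 ± 0.19 in Hdac1 knockout oocytes and 7.66 ± 0.10 in double knockout oocytes, a difference of -1.04 (limma adjusted p = 5.22e-08), against 9.28 ± 0.05 in wild-type oocytes. Ostm1 averaged 7.30 ± 0.15 in Hdac1 knockout oocytes, 6.51 ± 0.19 in Hdac2 knockout oocytes and 6.68 ± 0.07 in double knockout oocytes, against 6.52 ± 0.11 in wild-type oocytes. Slc6a20a averaged 8.30 ± 0.26 in Hdac1 knockout oocytes, 9.08 ± 0.09 in Hdac2 knockout oocytes and 9.01 ± 0.16 in double knockout oocytes, against 9.12 ± 0.05 in wild-type oocytes. The direct differences between the Hdac1 and the double knockout were 0.61 for Ostm1 and -0.71 for Slc6a20a (limma adjusted p = 3.91e-05 and 4.52e-05).

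Wasf1 and Enpp3 were lower than wild type in the Hdac1 knockout and higher than wild type in the double knockout. Wasf1 averaged 7.75 ± 0.03 in Hdac1 knockout oocytes, 8.08 ± 0.03 in Hdac2 knockout oocytes and 8.44 ± 0.04 in double knockout oocytes, against 8.11 ± 0.05 in wild-type oocytes. Enpp3 averaged 4.69 ± 0.19 in Hdac1 knockout oocytes, 5.52 ± 0.08 in Hdac2 knockout oocytes and 6.23 ± 0.30 in double knockout oocytes, against 5.62 ± 0.18 in wild-type oocytes. With both enzymes deleted Wasf1 rose by 0.32 and Enpp3 by 0.61 over wild type (limma adjusted p = 2.35e-05 and 0.00113), and the differences of the Hdac1 knockout minus the double knockout were -0.69 and -1.54.

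The other called genes did not separate the Hdac1 knockout from both. Poglut2, Dtwd2 and the called probe set of Ube2v2 also fell in the Hdac2 knockout (limma adjusted p = 0.019, 0.000793 and 0.0327). They fell in the double knockout too. Adgrg6 and Dvl1 rose in the double knockout and did not pass in the Hdac2 knockout, and the called probe set of Rps13 passed in neither. Poglut2 averaged 6.46 ± 0.07 in Hdac1 knockout oocytes, 6.67 ± 0.14 in Hdac2 knockout oocytes and 6.22 ± 0.09 in double knockout oocytes, against 6.99 ± 0.07 in wild-type oocytes. Dtwd2 averaged 6.37 ± 0.09 in Hdac1 knockout oocytes, 6.32 ± 0.10 in Hdac2 knockout oocytes and 5.95 ± 0.05 in double knockout oocytes, against 6.78 ± 0.10 in wild-type oocytes. For both, the double knockout was the lowest genotype. Adgrg6 differed from wild type by 0.50 in the Hdac1 knockout, by 0.26 in Hdac2 knockout oocytes and by 0.21 in double knockout oocytes. Dvl1 differed by 0.45, 0.14 and 0.26 in the Hdac1, Hdac2 and double knockouts, the called probe set of Ube2v2 by -0.72, -0.49 and -0.60, and that of Rps13 by -0.31, -0.16 and 0.11. Osbpl7 just missed the threshold in the Hdac1 knockout, with a change of 0.70 (limma adjusted p = 0.05855). It rose by 1.19 with Hdac2 deleted and by 1.70 with both deleted (limma adjusted p = 5.65e-05 and 2.29e-08).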

How the data were processed

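RNA of 80 pooled oocytes per sample was extracted, amplified with a whole-transcriptome kit, labelled with biotin and hybridised to Affymetrix Mouse 1.1 ST arrays, per the labels' protocols. The deposited table gives 1 value per probe set and array. Per the submitters' processing notes the authors used MAS5, with no version named, and the values fit a log2 scale, whose base was read from the values and is not stated. No further scaling was applied, since the quartiles of each array lay within 0.103 of their median over the arrays. The values start at the probe set, so background correction could not be varied.

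Symbols came from the platform annotation, and 1881 probe sets with several and 12457 with none were left out of the tests. One limma fit (3.58.1 in R 4.3.3) over all 16 arrays held 1 mean per genotype, with no covariate, and gave moderated tests with Benjamini-Hochberg adjustment over 21218 probe sets. Called means an adjusted p under 0.05, rose and fell are said only of called probe sets, and a change is the difference between 2 group means. Single values of Hdac1 and Hdac2 were also tested by an exact permutation test over the 8 arrays. The labels call the samples biological replicates. The number of arrays limits the precision. The fit was tested on simulated data.

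The genes and lists were chosen with earlier results of these data known. Named were Hdac1 and Hdac2, every called gene, the next 5 on each side of the threshold, all metallothionein, class I deacetylase and RNase A genes, up to 4 bright members of each other list, the 10 brightest genes, and the families and nearest 3 tested genes on each side of called genes. A gene was read by its brightest probe set, and 21185 probe sets were matched to a RefSeq gene for chromosome and gene order. Replicate numbers did not pair the arrays, with same-number correlations of deviations between -0.07 and 0.03 for the Hdac1 knockout and wild type. Alternatives were 2 scalings, a filter on dim probe sets, a fit of 8 arrays, a trended robust variance model, a replicate block, all 35556 probe sets, other thresholds, another ordering by level, and each array left out.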

Additional observations from a re-analysis of the deposited data

Results flagged for a closer look

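In a group of 4 arrays, the gap between the outermost array and its neighbour, divided by the range of the group, marks an array that stands apart when it exceeds Dixon's 95% critical value. This was computed for 69 genes in both genotypes, 138 groups in all, and 17 exceeded it. Chance alone would mark about 1 in 20 groups. Of the 17, 11 were among 38 groups of the uncalled probe sets with differences beyond 2-fold, nearly all of which have a group with a large SD and so were chosen for scattered arrays; 6 were among the 100 groups of the other genes.

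Hdac1 knockout replicate 1 stood apart for Parp8 at 3.85, the other arrays lying between 7.31 and 7.59, with a ratio of 0.9255. For Manba, Hdac1 knockout replicate 3 read 3.84 and the other arrays 7.49 to 7.79, a ratio of 0.9248. Hdac1 knockout replicate 3 stood apart for Pramel27 at 5.84, the other arrays lying between 9.36 and 9.77, with a ratio of 0.8978. For Tcstv1, Hdac1 knockout replicate 4 read 7.94 and the other arrays 9.42 to 9.61, a ratio of 0.8844. Hdac1 knockout replicate 4 stood apart for Hormad1 at 6.44, the other arrays lying between 4.37 and 4.63, with a ratio of 0.8744. For Cacng7, Hdac1 knockout replicate 1 read 4.62 and the other arrays 6.08 to 6.29, a ratio of 0.8699. Hdac1 knockout replicate 2 stood apart for Hdac2 at 11.05, the other arrays lying between 11.14 and 11.16, with a ratio of 0.8401. For Enpp3, Hdac1 knockout replicate 1 read 4.42 and the other arrays 4.76 to 4.82, a ratio of 0.8352.

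Wild-type replicate 3 stood apart for Arid5b at 5.67, the other arrays lying between 9.93 and 9.96, with a ratio of 0.9915. For Manba, wild-type replicate 2 read 7.90 and the other arrays 3.83 to 3.88, a ratio of 0.9875. Wild-type replicate 2 stood apart for Hormad1 at 4.66, the other arrays lying between 6.51 and 6.59, with a ratio of 0.9607. For Slc30a1, wild-type replicate 4 read 9.28 and the other arrays 9.19 to 9.20, a ratio of 0.9394. Wild-type replicate 2 stood apart for Poglut2 at 6.88, the other arrays lying between 7.01 and 7.03, with a ratio of 0.894. For Rnase10, wild-type replicate 2 read 3.34 and the other arrays 3.54 to 3.57, a ratio of 0.8636. Wild-type replicate 2 stood apart for Bfsp1 at 8.94, the other arrays lying between 8.70 and 8.74, with a ratio of 0.8556. For Parp8, wild-type replicate 2 read 7.68 and the other arrays 8.29 to 8.40, a ratio of 0.8527. Wild-type replicate 1 stood apart for Rnase13 at 4.08, the other arrays lying between 3.82 and 3.86, with a ratio of 0.8499.

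Probe sets with several gene symbols or none were not part of the comparison. When all 35556 were tested together, 9 of these 14338 passed, 4 higher and 5 lower in the Hdac1 knockout (limma, adjusted p under 0.05). All of the 5 lower except 10342499, which has no symbol, share the symbol 4930444G20Rik, each with AF366264 or Gm5415 beside it. They cannot be counted as separate genes. In the order of tested genes 4930444G20Rik lies 75 and Raet1e 74 places before Hdac2, on chromosome 10, where linkage and a response to Hdac1 cannot be told apart. The largest rise was that of probe set 10368224, with no symbol, at 6.30, 6.63, 7.04 and 6.44 in Hdac1 knockout arrays, against 4.10, 4.06, 4.02 and 4.24 in wild-type arrays. Probe set 10362091, shared by Raet1e and Raet1d, read 6.41, 6.47, 6.15 and 5.69 in Hdac1 knockout arrays, against 4.28, 4.30, 4.87 and 4.71 in wild-type arrays. In neither did the groups overlap (limma adjusted p = 0.00217 and 0.00132). Probe set 10362934, with no symbol, rose by 1.49 (limma adjusted p = 0.000116).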

How the results depend on the processing

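No called gene changed sign under any alternative run; of 2331 results for named genes, 93 changed sign, in 49 probe sets that were not called, with changes of at most 0.15. Against 15 called probe sets (4 higher, 11 lower), counts were 18 with arrays centred on their medians (7 higher), 13 with quantile normalization, 19 with the 8 arrays alone, 19 with a trended robust variance model (7 higher), 12 with the replicate block, 11 with a 1.4-fold limit added, 34 at an adjusted p under 0.1 (15 higher, 19 lower), and 22 with all probe sets (7 higher). Without dim probe sets the count was 23 (9 higher), and the interval lay within 1.4-fold for 10217 probe sets, fewer being tested. The dimmest decile then lies at a higher level, and its SD was 0.1775, beside 0.1755 in the sixth decile of the main fit. With all probe sets 511 lay beyond 1.4-fold and the SD of the dimmest decile was 0.1311. The SD of the brightest decile was 0.1287 when ordered by the other genotypes, where Mt1 enters it. Leaving out 1 array in turn gave 10 to 30 called probe sets, 2 to 10 higher and 8 to 20 lower; 2 higher came without Hdac1 knockout replicate 1 or wild-type replicate 4, and 30 in all without Hdac1 knockout replicate 4. That SD then spanned 0.0868 to 0.0918 in the dimmest decile. The count between the Hdac1 and Hdac2 knockouts spanned 678 to 1242, with 678, 752, 785 and 794 without Hdac2 knockout replicates 4 and 1 and Hdac1 knockout replicates 3 and 1. With the replicate block Adgrg6, Dtwd2, Rps13 and Ube2v2 lost their call and Rgs3 gained one; testing all probe sets lost Dvl1 and Ube2v2; the 8 arrays alone gained Slc7a8, Ap5m1, Olfr221, Tmem260 and 4 others. For these shifts the cause was not tested unless stated. Over all named genes and alternatives, 2267 results kept their side of the threshold, 41 lost a call and 23 gained one. Signal near the floor limits the dimmest decile.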
